A study of Mus musculus with 6 samples.

Results

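Lymphoid follicles are clusters of B cells around follicular dendritic cells, and they can form in the lung during chronic smoke exposure. 9 genes that build and fill such follicles were followed here in mouse lung: the chemokine genes Cxcl13 and Ccl19, the chemokine receptor gene Cxcr5, the lymphotoxin genes Lta and Ltb with their receptor gene Ltbr, the B cell survival factor gene Tnfsf13b (BAFF) with its receptor gene Tnfrsf13c, and the complement receptor gene Cr2. They were chosen by name for this role, with earlier results of these data known. All 9 were found among 57180 rows of the count table, and 8 of them were among the 16989 genes with enough reads to test. Polyadenylated RNA was sequenced from 6 lung samples of mice exposed to cigarette smoke, in a study that models chronic obstructive pulmonary disease. 3 samples were FTO-overexpressing (genotype FTO_OE) and 3 were wild type (genotype WT), and FTO is an RNA demethylase that acts on N6-methyladenosine. Strain, age, sex, the length of exposure and the way FTO was overexpressed are not given in the labels, and lungs without smoke were not analysed here. The comparison therefore asks how these genes differed with FTO overexpression in smoke-exposed lung, and no value measures an effect of smoke. Nothing in the labels ties a library to an animal of its own, and p-values measure the spread between these samples only.

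In lymphoid organs these genes work as a loop. Lymphocytes display lymphotoxin, a complex of the Lta and Ltb products, which engages the lymphotoxin beta receptor on stromal cells and starts the alternative NF-kB pathway. Stromal and follicular dendritic cells then make CXCL13 and CCL19, which draw in B cells through CXCR5 and T cells and dendritic cells through CCR7. BAFF keeps mature B cells alive through the BAFF receptor, and CD21, the Cr2 product, holds complement-coated antigen on B cells and follicular dendritic cells.

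The libraries held 16731850 to 21444907 counts in FTO-overexpressing lungs and 18044267 to 19389115 counts in wild-type lungs. Levels are given in CPM, counts scaled to library size by TMM, and tests are edgeR quasi-likelihood F-tests with Benjamini-Hochberg adjustment over all 16989 genes. Fto itself (ENSMUSG00000055932) ran from 650.1 to 740.8 CPM in FTO-overexpressing lungs and from 66.2 to 69.9 CPM in wild-type lungs, and 0 of 6 libraries went against their genotype label. Lung epithelial genes were abundant in every library: Sftpc, a surfactant protein gene, lay between 11476 and 15070 CPM and Ager, a gene of flat alveolar cells, between 1170 and 1567 CPM. In bulk tissue, fewer cells of a type and less RNA per cell cannot be told apart.

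None of the follicle genes passed the threshold of an adjusted p of 0.05. The count was 0 of 8 tested, where 0.0942% of all genes tested passed (16 genes, with 0.0765% higher and 0.0177% lower). DESeq2 called 0 of the 8 beside 2.5% of all genes (1.98% higher), limma-voom 0 of 8 beside 0.0294%, and edgeR without a count filter 0 of 9 beside 0.972% (0.853% higher). Without adjustment, 1 of 8 had p under 0.05, beside 9.44% of all genes. Of the 8 tested genes, 1 (Ltb) was higher in every FTO-overexpressing library than in any wild-type library and 0 were lower, beside 7.96% of all genes tested in the higher and 6.9% in the lower direction, so the count is near the background. Lta, too low to be among the genes tested, was also without overlap. The other 7 genes overlapped between groups. The median log2 fold change was -0.05 over the 8 genes and 0.01 over all genes tested, with 2 of the 8 above 0 and 6 below.

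The sequences upstream of the lymphotoxin and chemokine genes are shown because they are the ends of the loop, and because NF-kB is the factor family that the lymphotoxin beta receptor activates. RefSeq promoters (build GRCm38.p6) matched 8 of the 9 genes, all but Cxcr5. Each line gives the 250 bases before the start on the gene's strand, 5′ to 3′, and capitals mark a match to the kappaB consensus, searched on both strands in a loose form that takes any base at the 3 positions after the purine.
Ltb, chr17:35194257-35194506, plus strand: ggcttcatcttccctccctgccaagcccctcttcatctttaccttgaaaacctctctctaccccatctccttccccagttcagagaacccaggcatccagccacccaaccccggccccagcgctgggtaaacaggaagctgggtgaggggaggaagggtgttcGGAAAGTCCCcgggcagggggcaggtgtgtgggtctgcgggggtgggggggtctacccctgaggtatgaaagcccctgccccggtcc
Lta, chr17:35205352-35205601, minus strand: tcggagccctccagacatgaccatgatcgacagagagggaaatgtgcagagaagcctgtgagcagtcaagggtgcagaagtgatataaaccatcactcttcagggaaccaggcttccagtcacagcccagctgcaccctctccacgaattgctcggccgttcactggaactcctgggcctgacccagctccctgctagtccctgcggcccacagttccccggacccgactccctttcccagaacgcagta
Cxcl13, chr5:95956689-95956938, plus strand: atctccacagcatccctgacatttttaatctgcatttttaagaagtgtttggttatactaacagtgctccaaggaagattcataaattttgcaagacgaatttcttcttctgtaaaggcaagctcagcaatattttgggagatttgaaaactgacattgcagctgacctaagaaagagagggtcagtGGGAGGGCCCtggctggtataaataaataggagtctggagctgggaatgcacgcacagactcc
Ccl19, chr4:42756366-42756615, minus strand: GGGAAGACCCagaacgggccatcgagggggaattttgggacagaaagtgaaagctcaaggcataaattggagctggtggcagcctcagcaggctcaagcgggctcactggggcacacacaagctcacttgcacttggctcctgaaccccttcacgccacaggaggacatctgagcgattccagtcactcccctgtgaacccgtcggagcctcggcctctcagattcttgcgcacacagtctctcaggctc
The Ltb window held its match 87 bases upstream of the start, on the opposite strand, and the Cxcl13 window held one 63 bases upstream. The match of Ccl19 opens its window, 250 bases upstream, and the Lta window held no match. Cr2 had 2 overlapping matches on opposite strands, and the windows of Ltbr, Tnfsf13b and Tnfrsf13c held none. Of 32851 mouse promoter windows of the same length, 13.8% held a match. A match describes these letters only and does not show binding. No other form of the site was searched, so a window without capitals, or the lower-case part of one, may hold NF-kB sites of other sequence.

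Ltb (ENSMUSG00000024399), the membrane anchor of the lymphotoxin complex, was measured at 18.7, 20.5 and 25.04 CPM in FTO-overexpressing replicates 1, 2 and 3, against 15.8, 12.9 and 7.70 CPM in wild-type replicates 1, 2 and 3. The groups did not overlap, but the gap between the nearest libraries, FTO-overexpressing replicate 1 and wild-type replicate 1, was smaller than the spread within either group. The means were 21.4 ± 3.26 CPM in FTO-overexpressing and 12.1 ± 4.12 CPM in wild-type lungs (SD, n = 3 each). By the fit Ltb stood at 1.76 times its wild-type level, with 95% bounds of 1.18 and 2.64. The edgeR p was 0.0122 unadjusted and 0.323 adjusted over all genes. On the log2 scale the difference was 0.82 ± 0.25 (SE). Omitting wild-type replicate 3 brought it to 0.58, and omitting wild-type replicate 1 to 1.06. Over the 15 alternatives the adjusted p of Ltb ran between 0.0547 (DESeq2) and 0.727 (without FTO-overexpressing replicate 3).

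Lta (ENSMUSG00000024402), the soluble partner of Ltb, had too few reads for the main test. Its counts were 16, 9 and 11 in FTO-overexpressing replicates 1, 2 and 3, against 8, 6 and 4 in wild-type replicates 1, 2 and 3. On the CPM scale that was 0.611 ± 0.175 in FTO-overexpressing and 0.323 ± 0.107 in wild-type lungs (SD, n = 3 each), without overlap. A fit without the count filter gave 1.88-fold with a 95% interval of 0.835 to 4.22 that includes no difference (edgeR adjusted p = 0.801). By RefSeq, Lta and Ltb lie close together on chromosome 17, with Tnf, the tumour necrosis factor gene, between them. Tnf overlapped between groups, at 2.74, 3.98 and 2.67 CPM in FTO-overexpressing replicates 1, 2 and 3 against 3.03, 2.84 and 1.65 CPM in wild-type replicates 1, 2 and 3.

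Ltbr (ENSMUSG00000030339), the receptor for lymphotoxin on stromal and myeloid cells, was the steadiest of the 9 genes. It was measured at 54.2, 49.1 and 52.1 CPM in FTO-overexpressing replicates 1, 2 and 3, against 52.7, 54.3 and 60.9 CPM in wild-type replicates 1, 2 and 3. All libraries lay within a 1.24-fold range and the groups overlapped. The fitted ratio was 0.926 (95% interval 0.808 to 1.06; edgeR adjusted p = 0.768).

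**Figure D1:**
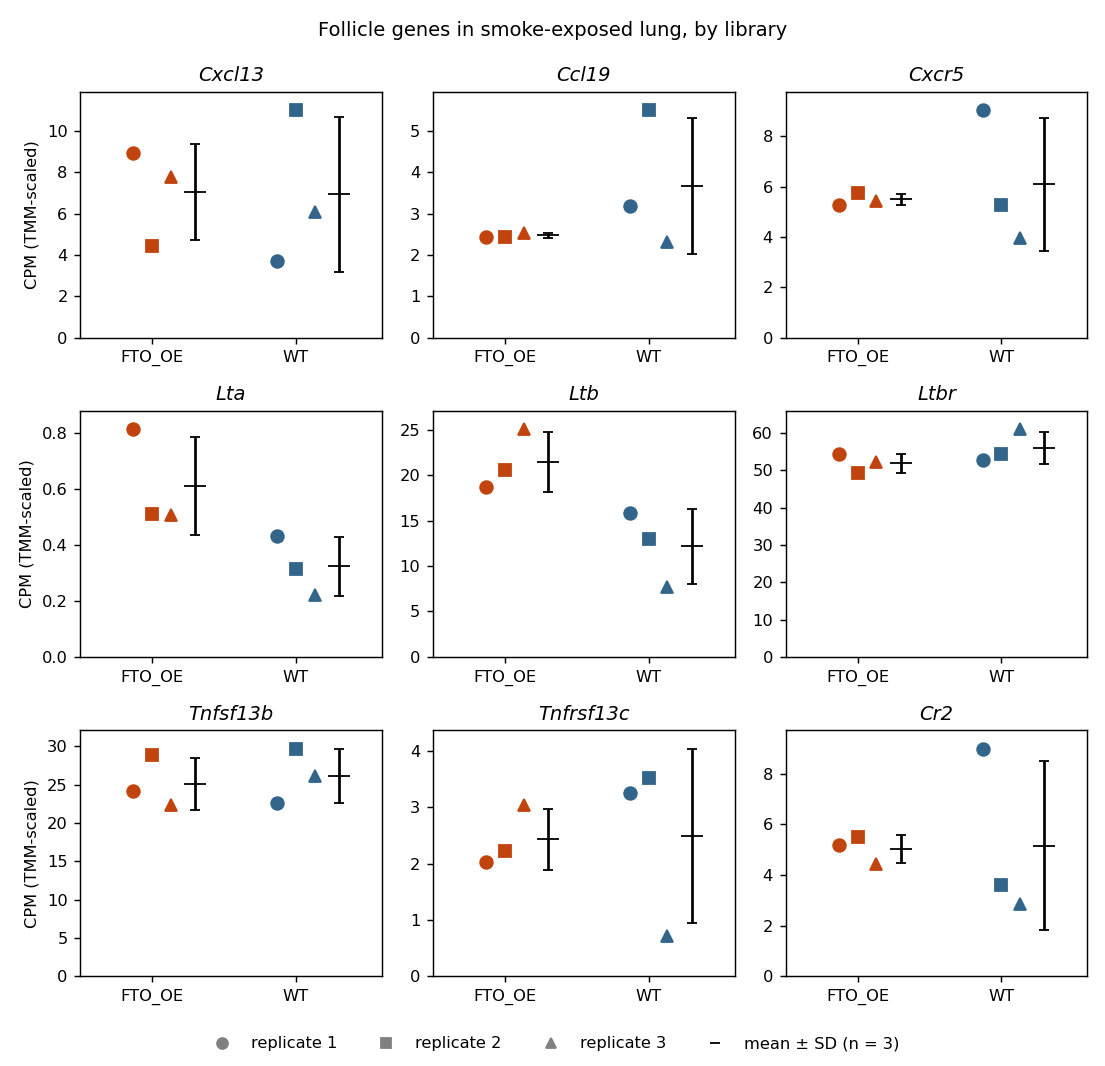
TMM-scaled CPM (linear axis from 0) of the 9 follicle genes in each library, FTO_OE left of WT, with symbols for replicates and bars for mean ± SD (n = 3). Only Ltb and Lta have every FTO_OE library above every WT library, and the WT libraries of Cxcl13, Ccl19, Cxcr5, Tnfrsf13c and Cr2 are widely spread.

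The chemokine genes and Cxcr5 overlapped between groups. Cxcl13 (ENSMUSG00000023078), which encodes the B cell attractant of follicles, was measured at 8.94, 4.43 and 7.79 CPM in FTO-overexpressing replicates 1, 2 and 3, against 3.68, 11.03 and 6.11 CPM in wild-type replicates 1, 2 and 3. Both the highest and the lowest library were wild type. The means were 7.06 ± 2.34 CPM in FTO-overexpressing and 6.94 ± 3.74 CPM in wild-type lungs (SD, n = 3 each), and the fitted ratio was 1.02 (95% interval 0.522 to 1.99; edgeR adjusted p = 0.993). The interval spans nearly a doubling in either direction. The sign depended on single libraries: the log2 fold change was 0.03 with all of them, -0.27, -0.06, -0.18 and -0.05 without wild-type replicate 1, wild-type replicate 3, FTO-overexpressing replicate 1 and FTO-overexpressing replicate 3, and 0.53 without wild-type replicate 2.

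Ccl19 (ENSMUSG00000071005), which encodes a ligand of CCR7, was measured at 2.44, 2.44 and 2.54 CPM in FTO-overexpressing replicates 1, 2 and 3, against 3.20, 5.52 and 2.31 CPM in wild-type replicates 1, 2 and 3. FTO-overexpressing libraries lay close together, and all of them fell inside the wild-type range. The fitted ratio was 0.673 (95% interval 0.395 to 1.15; edgeR adjusted p = 0.674). Its log2 fold change was -0.57, and -0.15 without wild-type replicate 2, the library with the most Ccl19. Estimated counts of Ccl19 were not whole, and a pseudogene copy, Ccl19-ps2 (ENSMUSG00000121463), was listed at 0.915 to 1.43 CPM in FTO-overexpressing and 0.715 to 2.47 CPM in wild-type lungs, so the division of reads between them is uncertain.

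Cxcr5 (ENSMUSG00000047880), the receptor through which B cells and follicular helper T cells follow CXCL13, was measured at 5.28, 5.74 and 5.44 CPM in FTO-overexpressing replicates 1, 2 and 3, against 9.05, 5.25 and 3.96 CPM in wild-type replicates 1, 2 and 3. The FTO-overexpressing libraries again lay inside the wild-type range. The fitted ratio was 0.902 (95% interval 0.558 to 1.46; edgeR adjusted p = 0.934), and the log2 fold change was -0.15, or 0.26 without wild-type replicate 1.

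The BAFF genes did not differ detectably either. Tnfsf13b (ENSMUSG00000031497), made by myeloid and stromal cells, was measured at 24.1, 28.9 and 22.3 CPM in FTO-overexpressing replicates 1, 2 and 3, against 22.6, 29.7 and 26.1 CPM in wild-type replicates 1, 2 and 3. Its fitted ratio was 0.961 (95% interval 0.770 to 1.20; edgeR adjusted p = 0.949). The levels of the ligand gene were thus spread over similar ranges in both groups, and its log2 fold change of -0.06 was 0.02 without FTO-overexpressing replicate 3 and 0.045 without wild-type replicate 2. Tnfrsf13c (ENSMUSG00000068105), the BAFF receptor gene of mature B cells, was measured at 2.03, 2.22 and 3.04 CPM in FTO-overexpressing replicates 1, 2 and 3, against 3.25, 3.52 and 0.715 CPM in wild-type replicates 1, 2 and 3. The low value of wild-type replicate 3 came from 13 counts. The fitted ratio of Tnfrsf13c was 0.975 (95% interval 0.422 to 2.25; edgeR adjusted p = 0.992), the widest interval of the 8 genes tested. Its log2 fold change of -0.04 was -0.47 without wild-type replicate 3. Omitting wild-type replicate 2 made it 0.29, and omitting wild-type replicate 1 made it 0.20. It also lay above 0, at 0.08 and 0.03, without FTO-overexpressing replicates 1 and 2.

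Cr2 (ENSMUSG00000026616) was measured at 5.18, 5.52 and 4.43 CPM in FTO-overexpressing replicates 1, 2 and 3, against 8.995, 3.62 and 2.86 CPM in wild-type replicates 1, 2 and 3. Wild-type replicate 1 was the highest of the 6 libraries for Cr2, as it was for Cxcr5, and wild-type replicate 3 was the lowest for both. The fitted ratio of Cr2 was 0.976 (95% interval 0.503 to 1.89; edgeR adjusted p = 0.989). Its log2 fold change was -0.03 with all libraries and 0.64 without wild-type replicate 1 (edgeR adjusted p = 0.321), where the other wild-type libraries both lay below all FTO-overexpressing ones. It was 0.05 without FTO-overexpressing replicate 3.

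**Figure D2:**
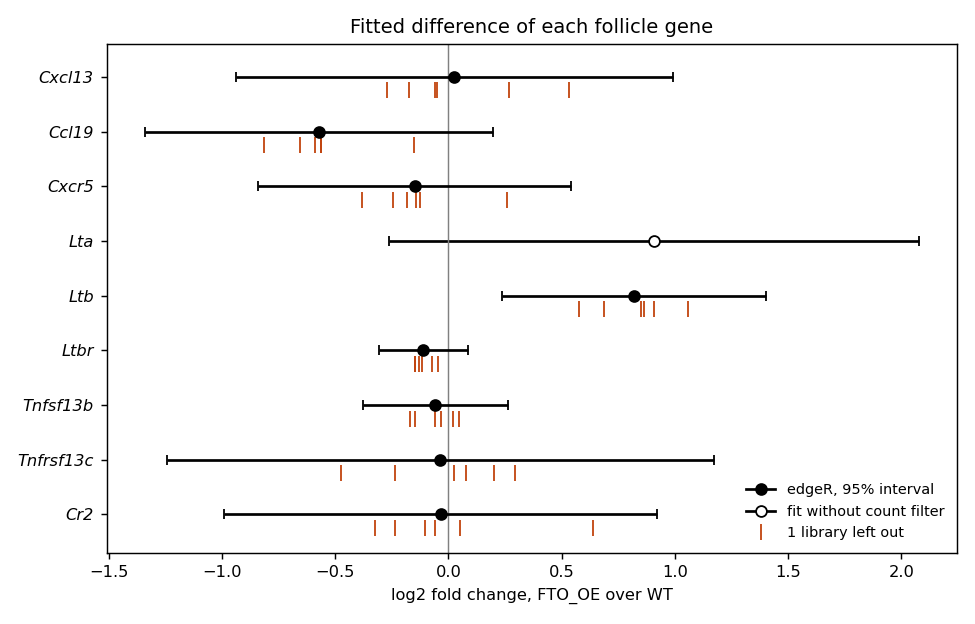
log2 fold change (FTO_OE over WT) of each follicle gene: filled points are edgeR estimates with 95% intervals, the open point for Lta is from the fit without a count filter, and ticks are the fits with 1 library left out. Only the interval of Ltb (0.24 to 1.40) excludes 0 before adjustment, and the ticks of Cxcl13, Cxcr5, Tnfsf13b, Tnfrsf13c and Cr2 fall on both sides of 0.

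The coefficient of variation was larger in wild-type than in FTO-overexpressing libraries for all 9 genes, as far as 3 samples a group can show. The SD of Lta went the other way, at 0.175 CPM in FTO-overexpressing and 0.107 CPM in wild-type lungs. The coefficient of variation was 2.20% in FTO-overexpressing and 45.0% in wild-type lungs for Ccl19. For Cxcr5 it was 4.24% in FTO-overexpressing and 43.5% in wild-type lungs. For Cr2 it was 11.1% in FTO-overexpressing and 64.8% in wild-type lungs. The groups were closest for Tnfsf13b, with 13.5% in FTO-overexpressing against 13.6% in wild-type lungs. The difference in spread was not tested, and the share of all genes with this direction was not counted. The same wild-type libraries set the extremes of several genes, so the 9 are not separate observations of spread.

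Levels between genes were compared per kilobase of exon (CPM per kb), with exon lengths from GENCODE M21, which may not be the annotation behind the counts. Ltbr was highest, at 20.9 to 25.9 CPM per kb over the 6 libraries, and did not overlap the next, Ltb, at 5.08 to 16.5 CPM per kb. Below them each gene overlapped its neighbour in the order: Cxcl13 (3.20 to 9.59), Tnfsf13b (3.25 to 4.32), Ccl19 (2.66 to 6.36), Cxcr5 (1.19 to 2.72), Tnfrsf13c (0.349 to 1.72), Cr2 (0.353 to 1.11) and Lta (0.159 to 0.588 CPM per kb). The ligand Lta was thus the scarcest of the 9 transcripts and the receptor Ltbr the most abundant.

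Markers of the cells that carry these genes differed unequally between the groups. The summed level of 18 T cell markers was 497, 632 and 1011 CPM in FTO-overexpressing replicates 1, 2 and 3, against 243, 224 and 175 CPM in wild-type replicates 1, 2 and 3. All 18 T cell markers were higher in every FTO-overexpressing library, where 7.96% of all genes tested were. The lists were chosen with earlier results of these data known, and markers of a single cell type are not independent. The count of T cell markers is therefore a description only. Of the 18, 3 passed the threshold, beside 0.0765% of all genes in the higher direction: Cd8a, Cd8b1 and Lck, genes of the CD8 co-receptor and of a T cell receptor kinase. These calls depended on the fit. Cd8a and Cd8b1 were called in 8 and Lck in 9 of 15 alternatives, and all 3 lost the call with limma-voom, with a replicate block, and without FTO-overexpressing replicate 2 or any 1 of the wild-type replicates (largest edgeR adjusted p 0.159, 0.161 and 0.172). Without FTO-overexpressing replicate 3, Cd8a and Cd8b1 lost it too (edgeR adjusted p = 0.0646 and 0.0628). The summed level of 18 B cell markers was 408, 342 and 423 CPM in FTO-overexpressing replicates 1, 2 and 3, against 658, 520 and 269 CPM in wild-type replicates 1, 2 and 3. Of these 18, 0 passed the threshold, 0 were free of overlap and 9 lay on each side of 0. The largest term of the B cell sum was Ighm, an immunoglobulin heavy chain gene, with a ratio of 0.595 (edgeR adjusted p = 0.569). Ighm averaged 139 CPM of a mean sum of 391 CPM in FTO-overexpressing lungs, and 233 CPM of 482 CPM in wild-type lungs. It therefore weighs heavily in the B cell sum and in every ratio to that sum. Ltb is made by T cells, B cells and other lymphocytes, and the part of the T cell levels in its difference was not tested. Markers of the other cells that make or receive these signals had 0 calls in every list. The median log2 fold change was -0.10 over 7 plasma cell genes, -0.13 over 11 dendritic cell genes, -0.27 over 10 alveolar macrophage genes, 0.32 over 8 neutrophil genes, -0.14 over 10 fibroblast genes and -0.23 over 6 lymphatic endothelial genes. Without overlap, 1 fibroblast gene was higher and 2 were lower, beside 7.96% and 6.9% of all genes tested, and the genes of the other 5 lists all overlapped. All 8 neutrophil genes lay above 0, while 9 of 11 dendritic cell and 8 of 10 alveolar macrophage genes lay below. The 10 lung epithelial genes all lay below 0, with a median of -0.26, where 51.5% of all genes tested lay above 0. Of these 10, 5 were lower in every FTO-overexpressing library, beside 6.9% of all genes tested. Red cell genes had a median of 0.21 over 5, and haemoglobin took 0.368% to 3.27% of the counts in FTO-overexpressing and 0.856% to 2.26% in wild-type lungs.

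Set against the marker sums, Ltb differed in opposite directions. It was 3.76%, 3.25% and 2.48% of the T cell sum in FTO-overexpressing replicates 1, 2 and 3, against 6.50%, 5.77% and 4.41% in wild-type replicates 1, 2 and 3. Relative to T cell markers Ltb was therefore lower in every FTO-overexpressing library. The T cell sum was itself higher in each of those libraries, so a gene at the same level in all libraries would also be lower against it. The share of all genes with this direction was not counted, and the ratio to the T cell sum is a description only. Against the B cell sum it was 4.58%, 6.00% and 5.92% in FTO-overexpressing replicates 1, 2 and 3, against 2.40%, 2.49% and 2.87% in wild-type replicates 1, 2 and 3. An exact two-sided permutation test gave p = 0.1 for each ratio, the smallest that 3 against 3 samples allow, or 0.333 after Benjamini-Hochberg adjustment over the 10 ratios computed. Tnf was 0.482 ± 0.192% of the T cell sum in FTO-overexpressing and 1.15 ± 0.180% in wild-type lungs (SD, n = 3 each). Against that sum Tnf, too, was lower in every FTO-overexpressing library (exact permutation p = 0.1, or 0.333 adjusted).

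Set against the B cell sum, the genes that B cells carry also overlapped between groups. Cxcr5 was 1.42 ± 0.224% of that sum in FTO-overexpressing and 1.29 ± 0.244% in wild-type lungs (SD, n = 3 each). Cr2 was 1.31 ± 0.285% of it in FTO-overexpressing and 1.04 ± 0.335% in wild-type lungs. Tnfrsf13c was 0.622 ± 0.113% of it in FTO-overexpressing and 0.479 ± 0.206% in wild-type lungs. Wild-type replicate 1 had both the highest B cell sum and the highest Cxcr5 and Cr2, and wild-type replicate 3 had the lowest of each. The exact two-sided permutation p was 0.6 for Cxcr5, 0.5 for Cr2 and 0.4 for Tnfrsf13c (0.667 for each when adjusted over the 10 ratios). Against the same sum Cxcl13 stood at 1.30% to 2.19% in FTO-overexpressing and 0.560% to 2.27% in wild-type lungs, so its lowest level fell in the library with the most B cell markers. The other ratios also overlapped between groups: Lta to the T cell sum (p = 0.3) and Cxcl13 and Ccl19 to a fibroblast sum (p = 0.6 and 0.4, exact permutation tests).

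**Figure D3:**
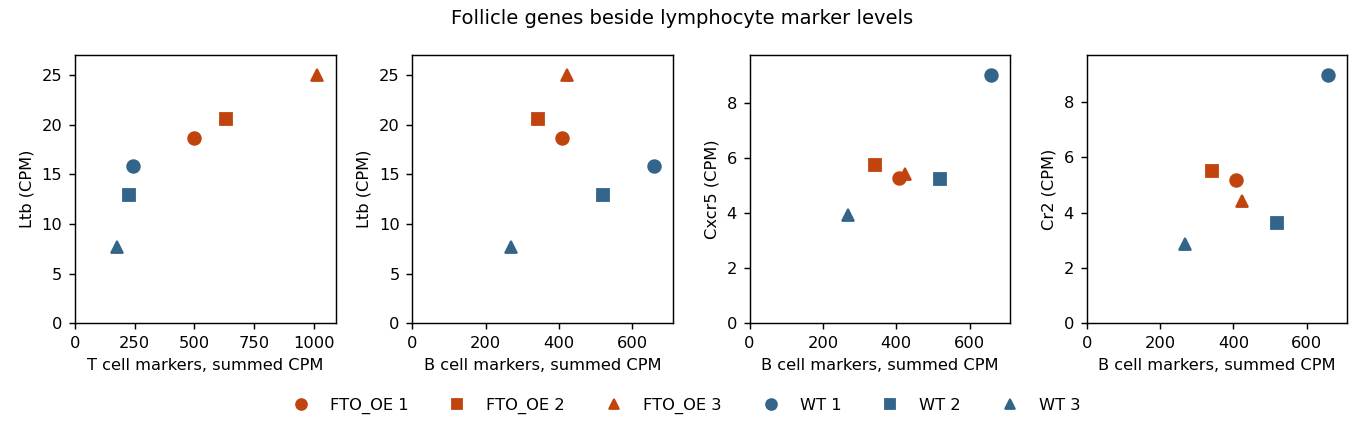
Level of Ltb, Cxcr5 and Cr2 (CPM) against the summed level of T or B cell markers (CPM) in each of the 6 libraries, FTO_OE in orange and WT in blue, with symbols for replicates. Ltb and T cell markers are both higher in all FTO_OE libraries, while Cxcr5 and Cr2 are highest in WT replicate 1 and lowest in WT replicate 3, as are the B cell markers.

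Of 13 other chemokine and receptor genes of lymphoid tissue tested, 1 was called higher and 0 lower, with a median log2 fold change of -0.05: Cxcr6, a receptor of effector and resident T cells, was 3.35-fold higher (95% interval 2.49 to 4.49; edgeR adjusted p = 0.0300), and was called in 9 of 15 alternatives. Its call was lost under the same settings as that of Lck, with an adjusted p of up to 0.155. Cxcr3, the receptor of activated T cells, was at 20.0 CPM in FTO-overexpressing and 4.23 CPM in wild-type lungs on average, without overlap (4.73-fold, edgeR adjusted p = 0.0970). Its ligand genes, induced by interferon gamma, were also free of overlap and short of the threshold. The ratio was 1.85 for Cxcl9, with bounds of 1.23 and 2.80 (edgeR adjusted p = 0.282), and 1.59 for Cxcl10, with bounds of 1.13 and 2.24 (edgeR adjusted p = 0.345). Ccr7, the receptor gene for CCL19, was at 6.50, 6.31 and 7.42 CPM in FTO-overexpressing replicates 1, 2 and 3 against 14.9, 8.77 and 6.55 CPM in wild-type replicates 1, 2 and 3, with overlap and a ratio of 0.670, bounds 0.419 and 1.07. Ccl21a, the other CCR7 ligand gene, averaged 77.7 CPM in FTO-overexpressing and 82.4 CPM in wild-type lungs, and its near-identical copy Ccl21b can share its reads. Cxcl12, a stromal chemokine gene, had a ratio of 1.22 (95% interval 0.963 to 1.55). Ackr3, a scavenging receptor gene for CXCL12, was the 1 gene of the list lower without overlap, at a ratio of 0.832 (edgeR adjusted p = 0.287). In this list 4 genes were higher without overlap, beside 7.96% of all genes tested, and 1 was lower, beside 6.9%.

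Among 15 tested genes of the lymphotoxin, BAFF and related tumour necrosis factor families, 0 were called in either direction, 13 had log2 fold changes above 0 and the median was 0.10. Tnfsf14, which encodes LIGHT, another ligand of the lymphotoxin beta receptor, was at 10.2, 5.29 and 8.72 CPM in FTO-overexpressing replicates 1, 2 and 3 against 6.72, 4.20 and 4.24 CPM in wild-type replicates 1, 2 and 3. The groups overlapped, and the ratio was 1.599 with bounds of 0.991 and 2.58 (edgeR adjusted p = 0.546). Tnfrsf14, the HVEM receptor of LIGHT, had every FTO-overexpressing library above every wild-type library at a ratio of 1.32, bounds 1.05 and 1.64 (edgeR adjusted p = 0.410). Cd27, a co-stimulatory receptor gene of T and memory B cells, also had every FTO-overexpressing library above every wild-type library. Its ratio was 3.19, bounds 1.61 and 6.33 (edgeR adjusted p = 0.228). Tnfrsf14 and Cd27 were the 2 genes of the list without overlap, where 7.96% of all genes tested were higher without overlap. Tnfsf13, which encodes APRIL, had a ratio of 0.797, Tnfrsf13b (TACI) 1.01, Tnfrsf17 (BCMA) 0.965 and Cd40 1.02, with groups overlapping in all 4. Cd40lg, the T cell ligand of CD40, had a ratio of 1.95 with an interval of 0.835 to 4.55.

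Of 11 alternative NF-kB pathway genes tested, through which the lymphotoxin beta receptor signals, 0 were called, and the median log2 fold change was 0.06. The 1 gene without overlap was Birc2, a ubiquitin ligase gene of the pathway, at a ratio of 1.21, bounds 1.04 and 1.41 (edgeR adjusted p = 0.411). The ratio was 1.11 for Map3k14, the kinase NIK that starts the pathway, 1.06 for Nfkb2 (95% interval 0.926 to 1.20), 1.02 for Relb and 0.955 for Birc3 (95% interval 0.824 to 1.11), with overlapping groups for each. Vcam1, an adhesion gene of organiser stroma, had a ratio of 1.03 (95% interval 0.852 to 1.25), and of 10 organiser and follicular dendritic genes tested 0 were called, with a median of -0.14. In that list Icam1, an adhesion gene, and Prnp, the prion protein gene, were the 2 without overlap, with ratios of 0.878 and 0.916 (edgeR adjusted p = 0.524 and 0.668). Of 8 tested genes of high endothelial venules, 0 were called, with a median of -0.03. Glycam1 and Chst4 of that list were too low to be among them, so the count does not cover these 2. In that list 1 was without overlap, Fut4, a fucosyltransferase gene, at a ratio of 0.777 (edgeR adjusted p = 0.529). Over all genes tested, 7.96% were higher and 6.9% lower without overlap.

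4 of the genes named by role had few or no reads. Madcam1, the addressin of organiser stroma, was listed at 0 in 4 of 6 libraries and at no more than 0.0542 CPM in the others. Glycam1, a gene of high endothelial venules, was at 0 in 5 of 6 libraries. Il21, a cytokine gene of follicular helper T cells, ran from 0.102 to 0.341 CPM in FTO-overexpressing and from 0.0550 to 0.473 CPM in wild-type lungs. Chst4, a sulphotransferase gene of high endothelial venules, was at 0.138 to 0.457 CPM in FTO-overexpressing and 0.379 to 1.49 CPM in wild-type lungs. For Chst4 a fit without the count filter gave a ratio of 0.324 with a 95% interval of 0.135 to 0.774 that leaves out 1 (edgeR adjusted p = 0.430), with groups that overlapped. Other genes of the same lists were well expressed, among them Mfge8, made by follicular dendritic cells and by other cells, at 193 CPM in FTO-overexpressing and 216 CPM in wild-type lungs on average. Of 8 thymus markers, 3 had no counts in any library (Rag2, Ptcra and Foxn1), and 1 was abundant enough to test.

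Of 11 tested genes of germinal centres and follicular helper T cells, 0 were called. The median log2 fold change was -0.04, with 5 genes above 0 and 6 below. Without overlap, 4 were higher and 2 lower, beside 7.96% of all genes tested in the higher and 6.9% in the lower direction. The higher ones included 3 genes that follicular helper and other activated T cells express. Icos, a co-stimulatory receptor gene, had a ratio of 2.21, bounds 1.20 and 4.09 (edgeR adjusted p = 0.379), Pdcd1 (PD-1) one of 2.37, bounds 1.12 and 5.02 (edgeR adjusted p = 0.446), and Sh2d1a (SAP) one of 4.27, bounds 1.77 and 10.3 (edgeR adjusted p = 0.241). The lower ones were Fas, the death receptor gene, at 0.827 and S1pr1, a lymphocyte exit receptor gene also of endothelium, at 0.795 (edgeR adjusted p = 0.399 and 0.410). Bcl6, the master regulator of germinal centre B cells and follicular helper T cells, is also expressed by lung cells of other kinds. It had a ratio of 0.873 (95% interval 0.733 to 1.04), and S1pr2, a confinement receptor of germinal centres, one of 0.886. Gpr183, the oxysterol receptor that guides B cells to the follicle edge, was the fourth of the higher ones at a ratio of 1.56, bounds 1.10 and 2.23 (edgeR adjusted p = 0.400). B cell identity genes overlapped between groups, with ratios of 0.996 for Ms4a1, 0.926 for Cd79a and 0.890 for Fcer2a, which encodes the low-affinity IgE receptor of follicular B cells. In the full list of 18 B cell markers, 9 log2 fold changes lay above 0 and 9 below. Ccl22, a chemokine gene of mature dendritic cells, had a ratio of 0.727, and Cd3e, a subunit of the T cell receptor complex, was without overlap at a ratio of 3.50 (edgeR adjusted p = 0.0833).

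**Figure D4:**
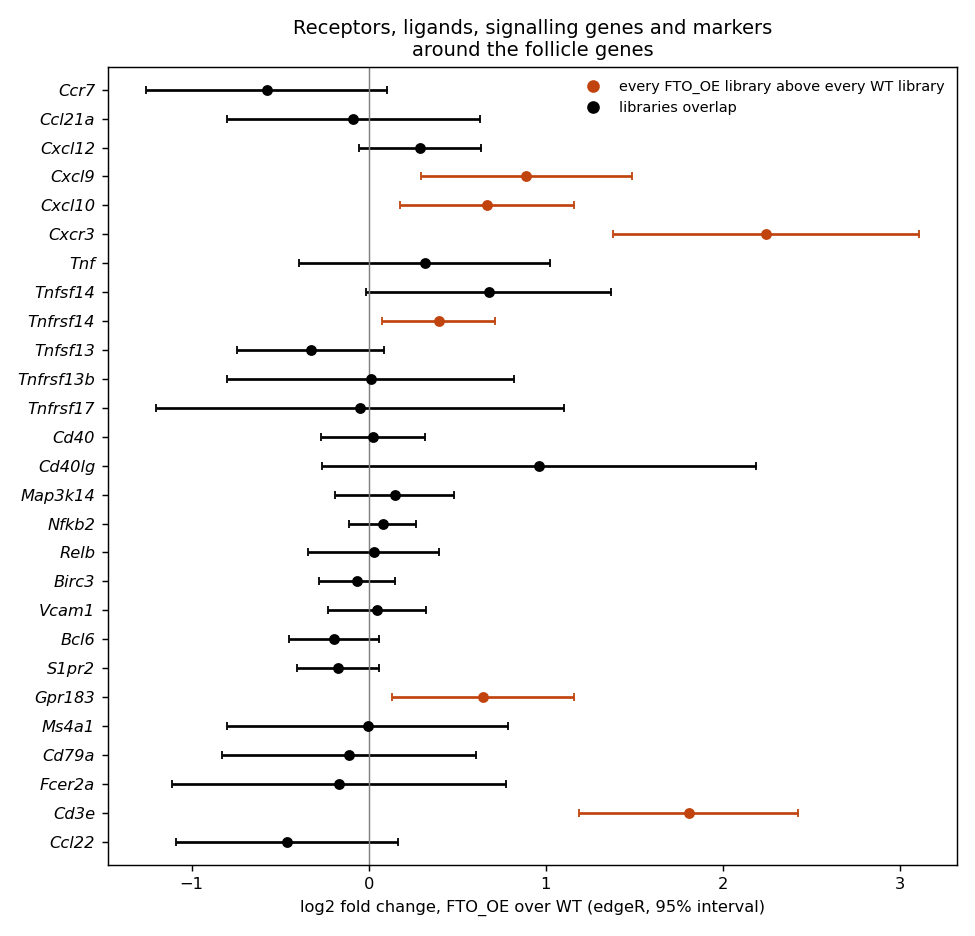
log2 fold change (FTO_OE over WT) with 95% edgeR intervals for 27 tested genes among the 31 receptors, ligands, signalling genes and markers named beside the follicle genes. Orange points mark the 6 genes whose FTO_OE libraries all lie above all WT libraries (Cxcl9, Cxcl10, Cxcr3, Tnfrsf14, Gpr183 and Cd3e), beside 7.96% of all genes tested. None of the 27 passed an adjusted p of 0.05.

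The profiles most like those of 3 follicle genes were sought among 15876 genes, as the root-mean-square difference in centred log2 CPM over the 6 libraries. Nearest to Ltb were Bub1b, a mitotic checkpoint kinase gene, at 0.0807, Dock2, a gene of leukocyte migration, at 0.0940, and Zc3h12d at 0.115, where the median gene was at 0.571. Nearest to Cxcl13 were F8, the coagulation factor VIII gene, at 0.133, Nccrp1 at 0.166 and Dnase1l3, a DNase gene of phagocytes and endothelium, at 0.171, where the median gene was at 0.569. Nearest to Tnfrsf13c were Gm7609 at 0.178, Iglc3, an immunoglobulin light chain constant gene, at 0.249 and H2-M2 at 0.257, where the median gene was at 0.747. With 6 libraries many genes share a profile, and these are descriptions only.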

How the data were processed

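Lung RNA of 3 FTO-overexpressing and 3 wild-type smoke-exposed samples was measured. Per the labels' protocols, RNA was extracted with TRIzol and libraries were made with a stranded poly(A)-selecting Illumina kit. The submitters' processing notes name fastp, HISAT2 and StringTie, without versions. Build, annotation and counting program are not stated in the labels, and whether counting used strand is unknown. The authors deposited expected counts per gene (estimated counts, not scaled), of which 9.66% to 10.3% in a library were not whole; they were rounded here. The 525 rows without a symbol, 0.119% to 0.143% of the counts, were kept by gene ID.

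Columns were matched to samples by the labels' column names. In R 4.3.3, edgeR 4.0.16 (filterByExpr, TMM, quasi-likelihood F-test, group as the only term) was fitted to all 16989 genes kept. Each log2 fold change and its F value gave the SE and 95% interval. Alternatives used limma 3.58.1 and DESeq2 1.42.0, and the procedure was tested on simulated data. The 9 genes and 17 gene lists (190 of 191 entries found) were chosen with earlier results of these data known. Genes named outside the 9 are 31 interaction partners chosen by role (2 more are not reported here), list members past the threshold and the nearest profiles. Rag2, Ptcra, Foxn1, Sftpc, Ager, Mfge8, Ighm and the list genes without overlap were named after their values were seen.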

Additional observations from a re-analysis of the deposited data

How the results depend on the processing

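No follicle gene was called under any of the 15 alternatives. Of 119 member values recomputed, 100 kept their direction and 19 changed sign. The number of genes called among all genes was 16, with 16 to 17 under RLE, upper-quartile or library-total scaling and 15 with a mean of at least 50 counts. It was 287 without a filter, 424 with DESeq2, 5 with limma-voom, 31 when haemoglobin, immunoglobulin and mitochondrial genes were dropped and 1 to 49 with 1 library left out (1 without FTO-overexpressing replicate 2, wild-type replicate 2 or wild-type replicate 3, and 49 without FTO-overexpressing replicate 1). The cause was not tested. With the replicate number as a block, 2 genes were called and the log2 fold changes of Cr2 and Tnfrsf13c turned to 0.13 and 0.13. Same-numbered samples correlated at 0.11, -0.31 and -0.31 in their deviations from the group means, so the numbers were not taken to pair the samples, and not every sample correlated best with its own number. The sign also turned with library totals only (0.0067 for Cr2 and 0.0055 for Tnfrsf13c) and with limma-voom (0.14 and 0.24). With 1 library left out, the log2 fold change ran from -0.27 to 0.53 for Cxcl13, -0.32 to 0.64 for Cr2, -0.38 to 0.26 for Cxcr5, -0.17 to 0.045 for Tnfsf13b, -0.47 to 0.29 for Tnfrsf13c, -0.82 to -0.15 for Ccl19, -0.15 to -0.05 for Ltbr and 0.58 to 1.06 for Ltb. Of the 8 tested follicle genes, 1 to 3 did not overlap between groups with 1 library left out (3 of 8 without wild-type replicate 1 or wild-type replicate 3), where 21.5% to 30.8% of all genes did not, and 1 of 8 with all libraries, where 14.9% of all genes did not. The low counts of Lta and Tnfrsf13c limit what could be detected.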
